A study of Oryza sativa with 7 samples.

Results

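Brassinosteroids are steroid hormones that plants make from sterols through a chain of cytochrome P450 enzymes. The hormone is bound at the cell surface by the receptor kinase BRI1, whose signal restrains GSK3-like kinases, so that transcription factors of the BZR1 family can act in the nucleus. In rice the pathway is known for its part in plant height, leaf angle, tillering and grain size. The genes described here are 8 of this pathway, of 26168 genes listed over the deposited tables. They were chosen by their gene identifiers, when earlier results of these data were already known. Of the 8 genes, 5 act in signaling (BRI1, GSK2, BZR1, DLT and LIC) and 3 in synthesis (D2, D11 and BRD1).

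Messenger RNA was sequenced from 7 groups of plants in the background of Nipponbare, a japonica rice cultivar, and each group stands for 3 biological repeats. Unelongated culms, the short stem base before internodes extend, were taken from seedlings aged 20 days, of the wild type, of mir156abckl (5 MIR156 genes mutated with CRISPR/Cas9) and of mir156defghi (6 mutated). Embryos of fresh wet seeds and shoots of 2-week-old seedlings each came from the wild type and from mir156abcdfghikl, with 10 mutated genes. The embryo and shoot samples of mir156abcdfghikl carry different line codes in the labels, and each mutant group carries a single code, so a genotype and its line cannot be told apart. miR156 represses SPL transcription factor genes, and each comparison asks how transcripts differ where part of this family of small RNAs is lost.

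Expression is given as FPKM, a count of sequenced fragments scaled by transcript length and by the size of the library, with 1 value per group over its repeats. No value per repeat was analysed here, so no SD, interval or test stands behind any difference, the read depth is unknown, and a difference cannot be set against the spread between repeats. In place of a test, each ratio of mutant to wild type is read against the ratios of all genes of the same table with a mean of at least 1 FPKM over both groups, and a gene is past 2-fold where the ratio reaches 2 upward or 0.5 downward. All 8 genes were listed in every table and had a mean of at least 1 FPKM in each. In shoots DLT reached this mean only through the mutant, with 0.733 FPKM in the wild type. In whole tissue, fewer cells of a type and less RNA per cell cannot be told apart.

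IPA1, an SPL gene repressed by miR156, had a higher FPKM in the mutant in all 4 comparisons. Its log2 ratios ran from 0.56 in mir156abckl culms, under 2-fold, to 4.98 in mir156abcdfghikl shoots. The paper had already reported these values, and they cannot show which MIR156 genes were mutated. Wild-type embryos and shoots fitted their labels, and no marker particular to culms was checked. The summed FPKM of oleosin genes was 34635 in wild-type embryos and 1.58 in wild-type shoots, and that of genes for chlorophyll A-B binding proteins was 50102 in wild-type shoots and 96.7 in wild-type embryos. In mir156abcdfghikl shoots the latter sum was 8390, with 1 of its 17 genes higher in the mutant. The part of this difference in leaf transcripts in the shoot results was not tested.

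BRI1 (LOC_Os01g52050, chromosome 1, 29927542 to 29931487, TIGR release 7) encodes the receptor kinase and is described in the tables as a systemin receptor. GSK2 (LOC_Os05g11730, chromosome 5, 6657480 to 6661493) encodes a GSK3-like kinase that holds brassinosteroid responses back. BZR1 (LOC_Os07g39220, chromosome 7, 23483808 to 23485344) encodes the transcription factor that carries out the response and lowers the transcription of synthesis genes. DLT (LOC_Os06g03710, chromosome 6, 1465498 to 1468600), whose mutants are dwarf with few tillers, encodes a GRAS protein that promotes brassinosteroid responses and is a substrate of GSK2, and the tables describe it as a DELLA protein. LIC (LOC_Os06g49080, chromosome 6, 29738879 to 29742503) encodes a CCCH-type zinc finger protein that works against BZR1.

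The synthesis genes D2 (LOC_Os01g10040, chromosome 1, 5236622 to 5244520), D11 (LOC_Os04g39430, chromosome 4, 23467127 to 23471594) and BRD1 (LOC_Os03g40540, chromosome 3, 22538340 to 22542520) all encode cytochrome P450 enzymes. D2 and D11 act on intermediates of the chain, and BRD1 is the oxidase that yields the active hormone castasterone. None of the 8 loci overlapped another listed gene.

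**Figure D1:**
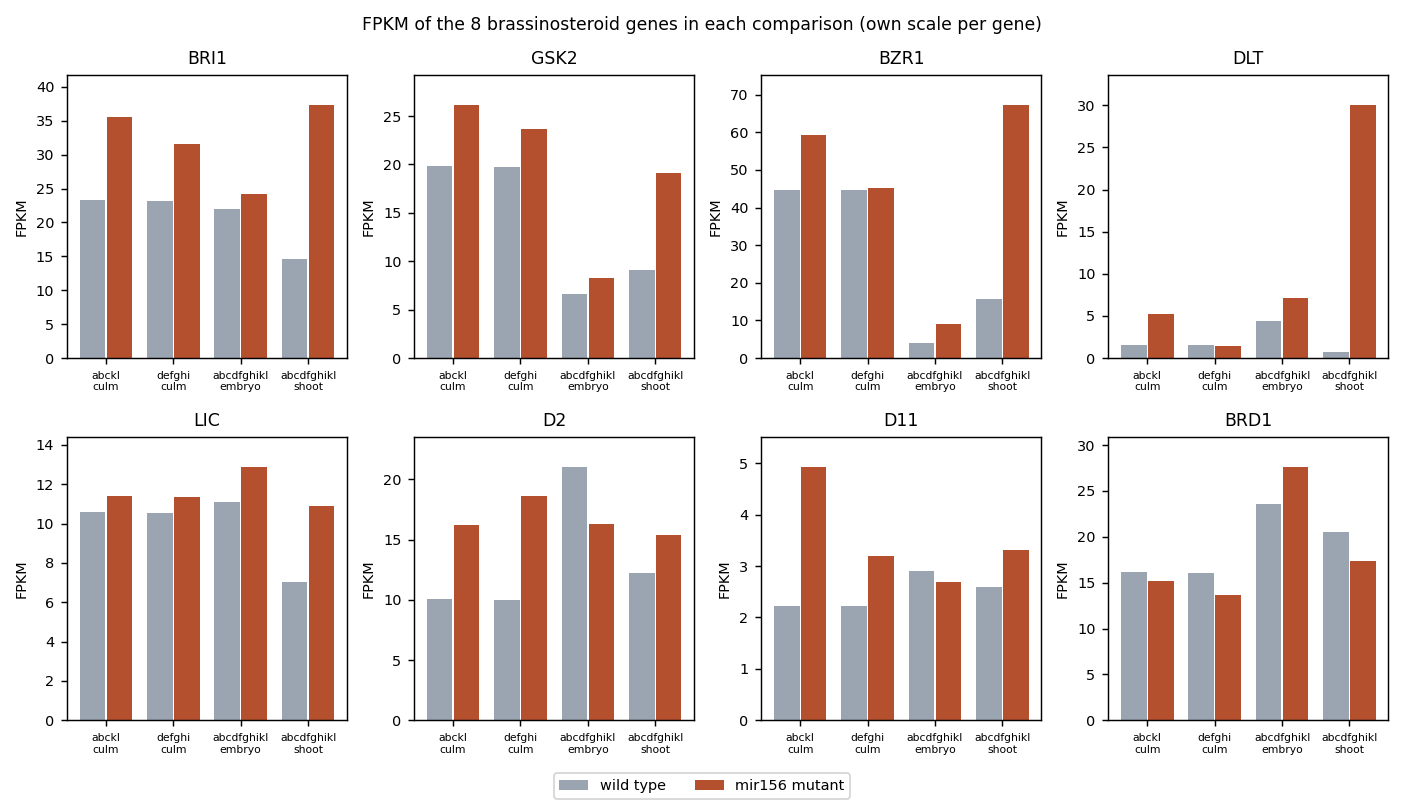
FPKM (vertical axis, own scale for each gene) of the 8 genes in the wild type (grey bars) and the mir156 mutant (brown bars) of each comparison, named by its MIR156 letters and tissue. The bars carry no error because each group has 1 value. DLT in shoots (0.733 FPKM in the wild type against 30.0 in the mutant) and BZR1 in shoots (15.7 and 67.3) show the widest gaps, and LIC stays between 7.01 and 12.9 FPKM.

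In shoots of mir156abcdfghikl, 4 of the 8 genes were at least 2-fold higher than in the wild type and 0 were at least 2-fold lower. All 4 were signaling genes (DLT, BZR1, BRI1 and GSK2). Shoots were the comparison in which most genes of any kind differed, and 25.9% of the genes were at least 2-fold higher and 22.6% at least 2-fold lower. The median log2 ratio of the 8 genes was 0.85, beside 0.14 over all genes, and that of the 5 signaling genes alone was 1.35. The 3 synthesis genes had a median of 0.33 on the same log2 scale.

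DLT showed the largest ratio of the set. Its FPKM was 0.733 in wild-type shoots and 30.0 in mir156abcdfghikl shoots, a log2 ratio of 5.36, which ranked 597 of 21148 genes from the top. The wild-type level was lower than that of most genes (6.15% of genes lay below it), so the ratio depends on a small denominator, and adding 1 FPKM to each group gave a log2 ratio of 4.16. In the mutant, 78.3% of genes lay below DLT, so the gene stood in the lowest part of the range of levels in the wild type and in its upper part in the mutant.

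BZR1 had 15.7 FPKM in wild-type shoots and 67.3 in mutant shoots, a log2 ratio of 2.10. This was the largest absolute gap among the 8 genes in this tissue, and 92.1% of genes lay below BZR1 in the mutant. BRI1 had 14.7 and 37.3 FPKM (log2 ratio 1.35). GSK2 had 9.09 and 19.1 FPKM, a log2 ratio of 1.07 that lay close to the 2-fold limit and went under it, to 0.94, when the median of all genes was subtracted. The receptor and the kinase that opposes the pathway were thus both higher in the mutant.

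LIC and the synthesis genes stayed within 2-fold in shoots. LIC had 7.01 FPKM in the wild type against 10.9 in the mutant (log2 ratio 0.63). D2 had 12.2 and 15.4 FPKM and D11 had 2.60 and 3.32, with log2 ratios of 0.33 and 0.35 that were 0.20 and 0.22 after subtraction of the median of all genes. BRD1 was the single gene of the set with a lower FPKM in the mutant, 17.4 against 20.6 in the wild type (log2 ratio -0.24), so that 7 of the 8 were higher by any size and 1 lower, where 54.4% of all genes were higher and 45.6% lower. At 1.5-fold, LIC joined the genes that were higher, which made 5 of 8 beside 36% of all genes, and 0 of 8 were lower beside 30.3%.

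Because a ratio of levels within a single group does not depend on the scaling between groups, the levels were also set against each other. FPKM is per length of exon, which allows this. In wild-type shoots BZR1 had 1.73 times the FPKM of GSK2, and in the mutant 3.52 times. BZR1 had 2.24 times the FPKM of LIC in the wild type against 6.19 times in the mutant. For DLT the ratio to GSK2 was 0.0806 in the wild type against 1.57 in the mutant, so that DLT lay below GSK2 in the wild type and above it in the mutant.

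**Figure D2:**
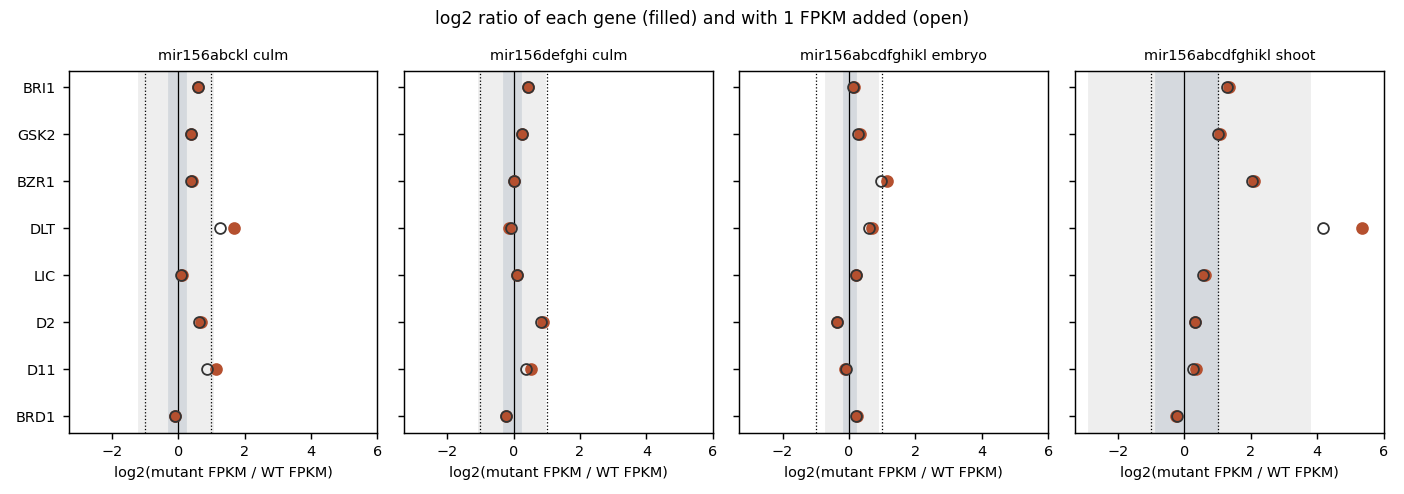
log2 ratio of mutant to wild-type FPKM (horizontal axis) of each gene in each comparison, as it stands (filled points) and with 1 FPKM added to both groups (open points). Light grey spans the range from percentile 5 to 95 of all genes with a mean of at least 1 FPKM, dark grey the middle quartiles, and dotted lines mark 2-fold. The light band reaches from -2.87 to 3.78 in shoots but only from -0.71 to 0.89 in embryos, and only DLT lies beyond it in shoots.

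In fresh seed embryos of the same genotype the differences were smaller. BZR1 alone was at least 2-fold higher, 1 of the 8 genes, and 0 were at least 2-fold lower, in a tissue where 4.14% of all genes were at least 2-fold higher and 2.59% at least 2-fold lower. BZR1 had 4.06 FPKM in wild-type embryos against 8.93 in the mutant, and its log2 ratio of 1.14 ranked 593 of 19205 genes from the top. Adding 1 FPKM to each group put it at 0.97, just under the limit. The median log2 ratio of the 8 genes was 0.22, beside 0.03 over all genes. In these embryos too the genes for chlorophyll A-B binding proteins differed, with a summed FPKM of 96.7 in the wild type against 259 in the mutant, and their part in the values was not tested.

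DLT had 4.42 FPKM in wild-type embryos and 7.15 in the mutant (log2 ratio 0.69), above 92.5% of all genes in this comparison. GSK2, with 6.61 and 8.27 FPKM, and LIC, with 11.1 and 12.9, had log2 ratios of 0.32 and 0.22. BRI1 was at 22.0 and 24.2 FPKM. All 5 signaling genes were thus higher in mutant embryos, 4 of them by less than 2-fold. At 1.5-fold, BZR1 and DLT were higher, 2 of the 8 beside 9.38% of all genes, and 0 were lower beside 6.74%.

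The synthesis genes divided in embryos. D2 had 21.0 FPKM in the wild type against 16.3 in the mutant (log2 ratio -0.37), and 11.7% of all genes had a lower ratio. D11 was at 2.90 and 2.69 FPKM (log2 ratio -0.11). BRD1 had 23.5 and 27.6 FPKM (log2 ratio 0.23). For each of the 3 genes the direction was opposite to that in shoots of the same genotype but another line code, with every ratio within 2-fold. How many of all genes were opposite in this pair was not counted. Over all 8 genes, 6 were higher in mutant embryos by any size and 2 lower, where 53.6% of all genes were higher and 46.4% lower.

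In unelongated culms of mir156abckl, 2 of the 8 genes were at least 2-fold higher, DLT and D11, and 0 were at least 2-fold lower. Over all genes, 5.51% were at least 2-fold higher and 6.56% at least 2-fold lower. In culms of mir156defghi, 0 of the 8 passed in either direction, where 4.61% of all genes were higher and 5.54% lower past 2-fold. The wild-type culms serve both comparisons, so their values are given side by side and are not independent. Genes for chlorophyll A-B binding proteins had a summed FPKM of 634 in wild-type culms, 939 in mir156abckl and 1153 in mir156defghi, and their part in the culm values was not tested. Over the 8 genes the log2 ratios had a median of 0.51 in mir156abckl and 0.18 in mir156defghi, beside -0.02 over all genes in each.

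DLT was the gene on which the culm mutants differed most. Its FPKM was 1.61 in the wild type, 5.20 in mir156abckl and 1.45 in mir156defghi, with log2 ratios of 1.70 and -0.14. In the difference between these log2 ratios, 1.83, the shared wild type cancels, which puts mir156abckl at 3.56 times mir156defghi. The levels were low, since 7.67% of genes lay below the wild-type value, and with 1 FPKM added the log2 ratio in mir156abckl was 1.25. IPA1 took the other order, with 20.8 FPKM in mir156abckl and 68.2 in mir156defghi.

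D11 had 2.23 FPKM in wild-type culms, 4.93 in mir156abckl and 3.20 in mir156defghi. Its log2 ratio of 1.14 in mir156abckl was 0.88 with 1 FPKM added, under the limit, and in mir156defghi it was 0.53. D2 was higher in both mutants as well, at 10.1 FPKM in the wild type, 16.2 in mir156abckl and 18.6 in mir156defghi. Its log2 ratio of 0.89 in mir156defghi was the largest of the 8 genes there, with 94.4% of all genes below it. BRD1, at 16.2 FPKM in the wild type, was at 15.2 and 13.6 in the mutants, so the last enzyme of the chain did not share the direction of D2 and D11.

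Among the other signaling genes, BRI1 had 23.4 FPKM in wild-type culms, 35.6 in mir156abckl and 31.6 in mir156defghi, with log2 ratios of 0.61 and 0.44. GSK2 had 19.9, 26.1 and 23.7 FPKM in the same order. BZR1 had 44.8 FPKM in the wild type against 59.2 in mir156abckl (log2 ratio 0.40), but 45.2 in mir156defghi, next to its wild-type value. LIC had 10.6, 11.4 and 11.3 FPKM and gave the same log2 ratio, 0.11, in both mutants. In mir156abckl 7 of the 8 genes were higher by any size, all but BRD1, where 47.6% of all genes were higher and 52.4% lower. In mir156defghi 6 of the 8 were higher, all but BRD1 and DLT, where 47.1% of all genes were higher and 52.9% lower. At 1.5-fold, 4 of the 8 were higher in mir156abckl (DLT, D11, D2 and BRI1) beside 11% of all genes, and 1 in mir156defghi (D2) beside 10.1%, while 0 were lower in either mutant beside 12.3% and 12.2%.

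The shares of the 3 synthesis genes in their summed FPKM are likewise independent of scaling. BRD1 held 56.8% of the sum in wild-type culms, 41.8% in mir156abckl and 38.5% in mir156defghi, and D2 held 35.4%, 44.6% and 52.5%. In wild-type culms BRD1 was the most abundant of the 3, and in both culm mutants D2 was. In shoots the share of BRD1 was 58.1% in the wild type against 48.2% in the mutant. Embryos went the other way, with 49.6% in the wild type against 59.3% in the mutant. D11 was the least abundant in all 7 groups, with 5.77% to 13.6% of the sum.

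**Figure D3:**
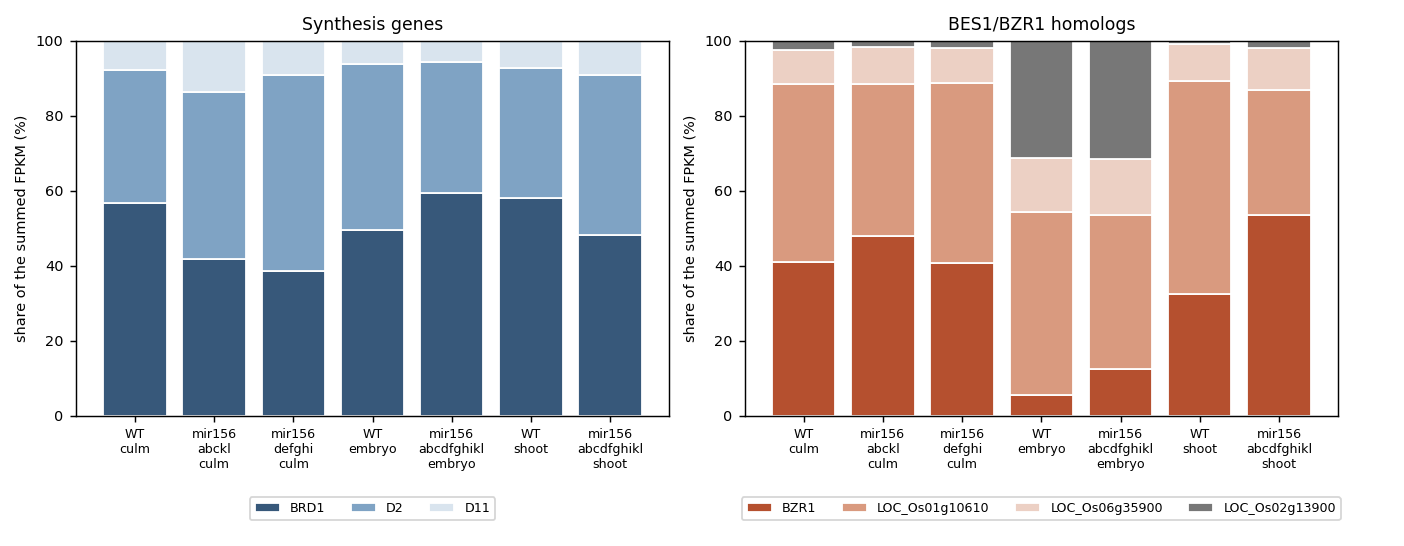
Share of the summed FPKM (vertical axis, percent) held by each synthesis gene (left) and by each gene described as a BES1/BZR1 homolog (right) in the 7 groups. BRD1 holds 56.8% of the synthesis sum in wild-type culms and 38.5% in mir156defghi culms, and BZR1 holds 5.58% of the homolog sum in wild-type embryos against 53.4% in mutant shoots.

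The wild-type levels differed between tissues most for BZR1. It had 44.8 FPKM in culms, 15.7 in shoots and 4.06 in embryos. DLT went from 4.42 FPKM in embryos to 1.61 in culms and 0.733 in shoots, and GSK2 from 19.9 in culms to 9.09 in shoots and 6.61 in embryos. BRI1, LIC, D11 and BRD1 spanned at most 1.59 times, and D2 spanned 2.09 times, from 10.1 FPKM in culms to 21.0 in embryos. The tables of different tissues were normalized separately, so these levels are a description across tables. The order within a table is free of this limit: in wild-type embryos BRI1 had 3.33 times the FPKM of GSK2 and BZR1 0.614 times, and in wild-type culms 1.17 times and 2.25 times.

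Over all 7 groups DLT spanned the widest range, 41.0 times from wild-type to mutant shoots, and BZR1 followed with 16.6 times. LIC spanned the least, 1.83 times. Mutant shoots were the highest group for BRI1, BZR1 and DLT, and mir156abckl culms for GSK2 and D11. D2 was highest in wild-type embryos, and BRD1 and LIC in mutant embryos. Neighbours in these orders often lay close, as with BRI1 at 37.3 FPKM in mutant shoots and 35.6 in mir156abckl culms, and without an error no neighbouring pair is shown to differ.

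Further genes of the pathway were taken by their descriptions in the tables, 36 in all. They comprised 4 receptor-like kinases described as a brassinosteroid receptor, 21 described as the BRI1-associated receptor kinase, which joins BRI1 as a co-receptor, 8 other GSK kinases and 3 other BES1/BZR1 homologs. A description shows likeness of sequence, and most of these kinases are not known to bind or relay the hormone. In embryos 0 of the 28 genes with a mean of at least 1 FPKM passed 2-fold, where 4.14% of all genes were higher and 2.59% lower. In mir156abckl culms 0 of 33 were higher and 3 lower (9.09%), beside 5.51% and 6.56% of all genes. In mir156defghi culms 0 of 33 were higher and 2 lower (6.06%), beside 4.61% and 5.54%. These counts lie near the shares over all genes. In shoots 6 of 34 were at least 2-fold higher and 7 lower, which is 17.6% and 20.6%, beside 25.9% and 22.6% of all genes.

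The other BES1/BZR1 homologs had log2 ratios of 0.61 to 2.72 in shoots, so that all 3 were higher there, as BZR1 was, in a tissue where 54.4% of all genes were higher by any size. LOC_Os02g13900 had 0.363 FPKM in wild-type shoots and 2.40 in the mutant, a log2 ratio that was 1.32 with 1 FPKM added, and it reached a mean of 1 FPKM only through the mutant. In embryos, where BZR1 was higher, the log2 ratios of the other homologs lay between -0.25 and 0.04. Accordingly BZR1 held 5.58% of the summed FPKM of these 4 genes in wild-type embryos and 12.3% in the mutant, and 32.5% and 53.4% in shoots. The most abundant homolog in wild-type shoots was LOC_Os01g10610, with 56.8% of the sum, and in mutant shoots BZR1 was.

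Of the 8 other GSK kinases, 1 was at least 2-fold higher in shoots, beside 25.9% of all genes, and their median log2 ratio there was 0.22, beside 0.14 over all genes. The log2 ratio of LOC_Os01g10840, with 25.9 FPKM in wild-type shoots and 60.5 in the mutant, was 1.22, above the 1.07 of GSK2, and that of LOC_Os03g62500 was 0.98, close to it. GSK2 was a minor part of this family by level, with 2.58% of its summed FPKM in wild-type shoots and 4.19% in the mutant. In culms it held 4.42% in the wild type against 5.14% in mir156abckl.

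Among the receptor-like kinases of shoots, LOC_Os08g17410, described as BRI1, had 2.45 FPKM in the wild type against 21.1 in the mutant (log2 ratio 3.11), and LOC_Os03g16010, described as BRI1-associated, had 26.0 and 109 FPKM. LOC_Os06g12120, also described as BRI1-associated, had 24.4 and 4.95 FPKM, and LOC_Os02g06150, a brassinosteroid receptor kinase by its description, had 1.95 and 0.144 FPKM. LOC_Os02g06150 reached a mean of 1 FPKM only through the wild type, and its log2 ratio with 1 FPKM added was -1.37. Leaving it aside, the receptor-like kinases of shoots still differed in direction among themselves. LOC_Os11g31530, LOC_Os11g31540 and LOC_Os11g31550 are neighbours on chromosome 11 with the same description, and their single values are uncertain where reads could be shared between them. LOC_Os11g31540 had 11.5 FPKM in wild-type shoots and 0.405 in the mutant. In culms it had 159 FPKM in the wild type, 15.6 in mir156abckl and 87.9 in mir156defghi, the last within 2-fold (log2 ratio -0.84). LOC_Os11g31530 is listed at 0 in mutant shoots and counts as lower there. In shoots it and LOC_Os11g31540, and in both culm comparisons LOC_Os11g31550, reached a mean of 1 FPKM only through the wild type. LOC_Os11g31550, which has no value in the shoot table, had 5.67 FPKM in wild-type culms and 0.344 in mir156abckl, and the table of mir156defghi culms gives 5.63 and 0.335 FPKM.

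Several other kinases were lower in more than 1 comparison, and only those past 2-fold in a culm mutant are given here. LOC_Os11g39370, described as BRI1-associated, had 112 FPKM in wild-type culms, 56.5 in mir156abckl and 50.3 in mir156defghi, with log2 ratios of -0.99 and -1.15 on either side of the limit. In shoots it had 64.7 FPKM in the wild type against 15.4 in the mutant (log2 ratio -2.07). LOC_Os07g40630, described as BRI1, had 13.1 FPKM in wild-type culms, 5.10 in mir156abckl and 9.64 in mir156defghi, and 6.21 and 2.39 FPKM in wild-type and mutant shoots.

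**Figure D4:**
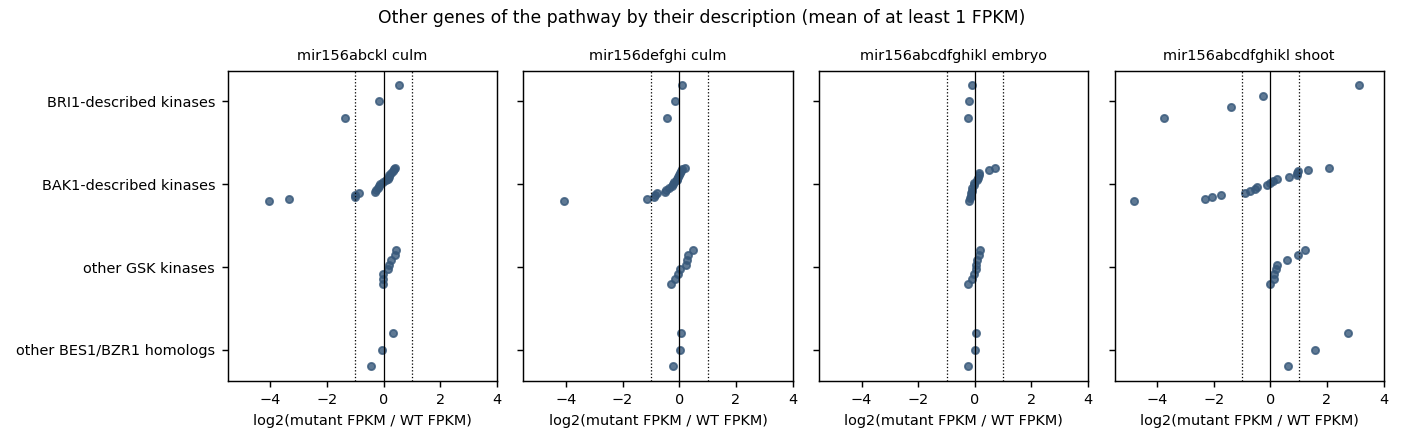
log2 ratio of mutant to wild-type FPKM (horizontal axis) of the 36 further genes by description, each point a gene with a mean of at least 1 FPKM in that table, with dotted lines at 2-fold. Points within a list are ordered by value. The BES1/BZR1 homologs all lie above 0 in shoots, at 0.61 to 2.72, while kinases described as BRI1-associated reach from -4.83 to 2.07, leaving out LOC_Os11g31530, which has no ratio.

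The genes whose log2 ratios over the 4 comparisons lay nearest to those of DLT, by Euclidean distance among 17073 genes, were LOC_Os03g46920 (an expressed protein, distance 0.39), LOC_Os03g11540 (a putative subunit of the RPA single-stranded DNA binding complex, 0.40) and LOC_Os09g38540 (with a plastocyanin-like domain, 0.47). The FPKM of LOC_Os03g11540 was 1.28 in wild-type shoots and 40.4 in the mutant, 3.78 in wild-type culms and 11.3 in mir156abckl, and 3.53 in mir156defghi. In wild-type and mutant shoots LOC_Os03g46920 had 0.854 and 27.0 FPKM, and LOC_Os09g38540 had 0.467 and 26.2. Both genes, like DLT, reached a mean of 1 FPKM there only through the mutant, so these shoot ratios have small denominators. The likeness rests on 4 ratios, 2 of which share the wild-type culms, and it describes their pattern only.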

How the data were processed

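Stranded mRNA libraries were sequenced by the authors, who filtered out reads of low quality or with adapters, mapped the others with Hisat2 at default settings (genome: TIGR release 7), and obtained the deposited FPKM values with Cufflinks (version 2.2.1 in the submitters' processing notes). Each deposited table holds 1 FPKM value per group over 3 biological repeats, scaled within that table. The tables also hold the log2 ratio, direction, p-value and q-value of the authors' cuffdiff comparison, which were not used.

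Ratios, log2 ratios with nothing added, shares and ranks were computed from the FPKM columns with pandas 2.3.3 and numpy 2.4.6 under Python 3.11.15, and figures were made in matplotlib 3.10.9. Background shares cover genes with a mean of at least 1 FPKM over both groups, including genes listed at 0 in a single group. The counting was tested on simulated data, with changes set well past the limit in genes with a wild-type value of at least 1 FPKM. That test does not bear on genes near the limit or with a lower wild-type value. Without values per repeat no test was run, and depth is unknown. A planned count of promoter motifs was not run because no genome sequence was used here.

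The 8 genes and the lists were chosen with earlier results of these data known. Named beside them are up to 6 further pathway genes per comparison with the largest log2 ratios past 2-fold, the other BES1/BZR1 homologs, LOC_Os11g31530, LOC_Os01g10840 and LOC_Os03g62500 (chosen after their values were seen), IPA1, and the 3 genes nearest to the member with the largest ratio. Of 17 further candidates listed by identifier, 15 are not named by the tables or by the RefSeq gene table (ASM3414082v1), which matched 0 of 26168 identifiers, and they were not used. No description named a P450 of a brassinosteroid family (0 genes). Alternatives were 1 FPKM added, centring on the median of all genes, a minimum mean of 1 FPKM, a limit of 1.5-fold, and background shares over all genes above 0 in both groups. A median counted as moved at 0.1 on the log2 scale.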

Additional observations from a re-analysis of the deposited data

Results flagged for a closer look

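The direction of a gene was compared within 2 pairs, shoots and embryos of mir156abcdfghikl and the culms of both other mutants. It was opposite in 4 cases, and none of these differences was tested. Between shoots and embryos of mir156abcdfghikl, the log2 ratio in shoots minus that in embryos was 0.70 for D2, 0.46 for D11 and -0.47 for BRD1, where every single ratio was within 2-fold. Between culms of mir156abckl and mir156defghi, the difference for DLT was 1.83, from log2 ratios of 1.70 and -0.14. The mutant shoots and embryos carry different line codes, so tissue and line cannot be told apart in that pair. Directions also differed between culms and the other tissues, where genotype, line and tissue all differ, and these pairs are not listed here.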

How the results depend on the processing

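No gene of the 8 passed 2-fold downward under any alternative. With 1 FPKM added, the number at least 2-fold higher was 1 in mir156abckl culms, where D11 (log2 ratio 0.88) went under the limit, and 0 in embryos, where BZR1 (0.97) did. In shoots it was 3, since GSK2 lay just under the limit, and it was also 3 after centring (GSK2 at 0.94). A limit of 1.5-fold gave 4 genes in mir156abckl culms, 1 in mir156defghi culms, 2 in embryos and 5 in shoots. Centring lowered the median log2 ratio of the 8 genes in shoots to 0.72. Of 64 recomputed single log2 ratios, 4 crossed the 2-fold limit and 0 changed sign. Adding 1 FPKM cannot change a sign and only shrinks a ratio. Of these recomputed ratios, only the centred ones could therefore have changed sign or passed the limit anew. The minimum mean of 1 FPKM kept all 8 genes, so it could not change a count. No paired analysis was possible because the tables give 1 value per group, and no repeat could be left out for the same reason. Genes with a low FPKM, DLT and D11 above all, have the least certain ratios.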
